A study of Mus musculus with 2 samples.

Results

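Mir21a and the 4 genes of the miR-29 family, Mir29a, Mir29b-1, Mir29b-2 and Mir29c, were followed in small RNA libraries of the embryonic mouse heart. They were chosen by gene symbol, as microRNAs (miRNAs) known from work on fibrosis, and are 5 of the 1973 genes in the deposited count tables. Of the 1973 genes, 1894 were found by gene ID in the GENCODE M21 annotation. The series holds a single group of 2 libraries, replicates 1 and 2, from hearts of B6NCrl mouse embryos at embryonic day 14.5, with no treatment, mutation or control group. The labels describe each library as coming from 1 heart, collected on 15 July 2014 for replicate 1 and on 17 July 2014 for replicate 2, while their sex entry names pooled males and females, which 1 heart cannot be. The labels call the libraries biological replicates and give them separate collection days but 1 shared donor entry, and the spread between them may in part be technical. The comparisons the design allows are between miRNAs within a library and between the libraries, and no test between conditions can be made.

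A miRNA gene gives a hairpin RNA that is cut into mature arms, named 5p and 3p. An arm loaded into Argonaute pairs with messenger RNAs mainly through its seed, the bases after its first base, and lowers their translation and stability. In the injured adult heart of the mouse, miR-21 has been described as favouring fibrosis, acting in fibroblasts on inhibitors of growth factor signalling such as Sprouty1, although its part has been disputed. The miR-29 family targets messenger RNAs of collagens, elastin and fibrillin and has been described as holding fibrosis back, its level falling in fibroblasts exposed to transforming growth factor beta. An embryonic heart at this stage is still building its valves and septa.

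The mature sequences are shown because the family shares 1 seed and because their likeness decides which reads a count table can place. Sequences and positions are those of RefSeq on GRCm38.p6, the assembly that mm10 names, and RefSeq entries were found for 5 of 5 genes at the same positions as in GENCODE M21. Each runs from 5′ to 3′, and capitals mark the seed, bases 2 to 8.

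miR-21a-5p: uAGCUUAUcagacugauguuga
miR-21a-3p: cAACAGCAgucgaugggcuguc
miR-29a-3p: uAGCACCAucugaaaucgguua
miR-29c-3p: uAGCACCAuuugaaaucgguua
miR-29b-3p, from both Mir29b-1 and Mir29b-2: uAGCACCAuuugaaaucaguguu
miR-29b-1-5p: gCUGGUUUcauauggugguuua
miR-29b-2-5p: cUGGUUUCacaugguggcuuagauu

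All 4 miR-29 genes give a 3p arm with the seed AGCACCA, which no other mature miRNA in the RefSeq table carries. Counted from 1 at the 5′ end, miR-29c-3p differs from miR-29a-3p by C10U alone. Against miR-29c-3p, miR-29b-3p has G18A, U21G and A22U, and is 23 bases long where miR-29c-3p is 22. The first 17 bases of miR-29c-3p and miR-29b-3p are therefore the same. The 3p arm of Mir29b-1 is identical to that of Mir29b-2 over all 23 bases, while their 5p arms share at most 9 bases in a row. The seed of miR-21a-5p, AGCUUAU, recurs in miR-21c, which shares the first 15 bases with it and first differs by A16G. Mir21c, on chromosome 8, and Mir21b, on chromosome 3, each had 0 counts in both libraries, on either strand. The seed of miR-29b-2-5p recurs in miR-6338, whose gene Mir6338 also had 0 counts in both.

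The hairpins of the miR-29b pair are shown with their annotated arms in capitals. A read of the identical 3p arm can tell the loci apart only if it reaches beyond that arm, while the other arms differ.

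Mir29b-1: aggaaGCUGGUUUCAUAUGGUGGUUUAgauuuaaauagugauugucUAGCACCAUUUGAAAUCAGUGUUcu
Mir29b-2: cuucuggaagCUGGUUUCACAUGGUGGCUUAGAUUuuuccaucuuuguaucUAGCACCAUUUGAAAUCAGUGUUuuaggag

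The longest stretch common to the hairpins of Mir29b-1 and Mir29b-2 was 25 bases. Mir29c shared 22 bases with Mir29b-1 and 19 with Mir29b-2. Mir29a shared at most 14 bases with any of 1004 other hairpins, namely with Mir29c, and Mir21a at most 15, with Mir21c. In GENCODE M21 transcripts, each arm of Mir21a, Mir29a and Mir29c matched exactly at its own locus alone, in the miRNA and in genes that overlap it, and miR-29b-3p matched at the Mir29b-1 and Mir29b-2 loci. These searches covered annotated transcripts and hairpins, and the rest of the genome was not searched.

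The genes lie at 3 loci (build mm10, positions from GENCODE M21). Mir21a (ENSMUSG00000065455) is on the minus strand of chromosome 11, chr11:86584067-86584158, within an exon of Vmp1, a protein-coding gene of autophagy that runs the same way, in its untranslated region. Mir29a (ENSMUSG00000065610, chr6:31062660-31062747) and Mir29b-1 (ENSMUSG00000065604, chr6:31063023-31063093) are on the minus strand of chromosome 6, 275 bases apart. Mir29b-1 comes first in the direction of transcription and overlaps the noncoding gene Gm27019 by 2 bases. Mir29b-2 (ENSMUSG00000065412, chr1:195037040-195037120) and Mir29c (ENSMUSG00000065548, chr1:195037547-195037634) are on the plus strand of chromosome 1, 426 bases apart. Both lie in an exon of A330023F24Rik-204, a noncoding transcript on the same strand, and opposite an untranslated part of an exon of Cd46, a complement regulator. None of the 5 genes had a read on the opposite strand in either library, so no reads of Cd46 orientation were counted at Mir29b-2 or Mir29c.

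**Figure D1:**
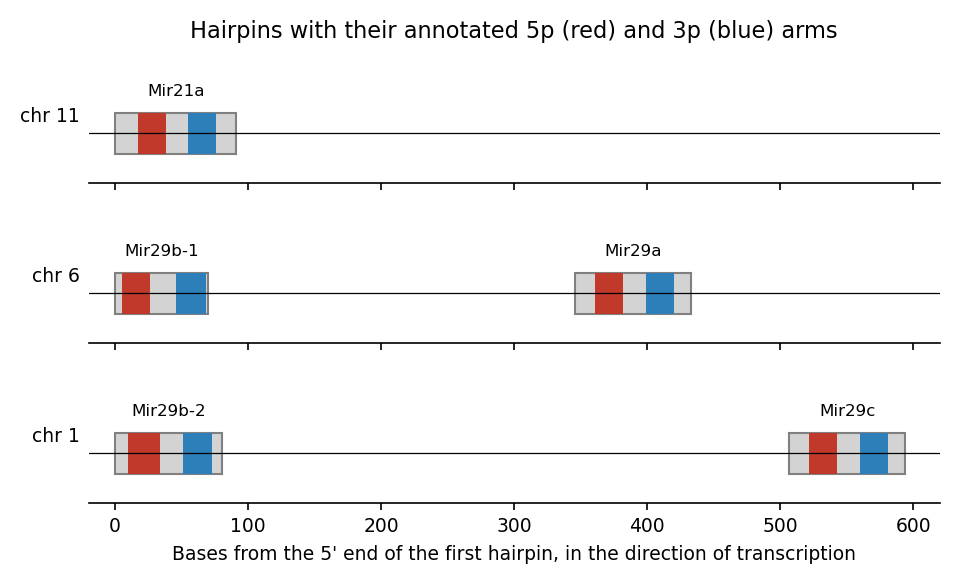
Layout of the 3 loci, with the distance in bases from the 5′ end of the first hairpin on the horizontal axis. Grey boxes are hairpins, red the annotated 5p and blue the annotated 3p arms; each miR-29b hairpin precedes its partner, by 275 bases on chromosome 6 and by 426 bases on chromosome 1.

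Gene counts on the strand used totalled 4327424 in replicate 1 and 3839984 in replicate 2. Levels are given in CPM, a gene's count scaled to a total of 1000000 such counts. Intervals are exact, at 95%, from the Poisson distribution for a level and from the binomial for a ratio. They hold counting error alone, because copies made by PCR carry no molecular identifier and cannot be told from separate molecules. A further 2496903 reads in replicate 1 and 2190149 in replicate 2 mapped to several places. They were tallied on 1 line apart from the genes, with no record of which RNA they match. The level that a count of 0 still allows was 0.693 CPM for replicate 1 and 0.781 CPM for replicate 2. The defining miRNAs of heart muscle, Mir208a, Mir208b and Mir499, were each detected, and their sum was 75752 CPM in replicate 1 against 79353 CPM in replicate 2.

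Mir21a was among the most abundant genes of the tables, and each of the miR-29 genes had a far lower gene count. Mir21a reached 24189 CPM in replicate 1 (104675 counts, interval 24042 to 24336) and 23309 CPM in replicate 2 (89505 counts, interval 23156 to 23462), a mean of 23749 ± 622 CPM (SD, n = 2). It held 2.37% ± 0.0622 of the assigned reads and ranked 12 in replicate 1 and 11 in replicate 2 among the 1973 genes. Of the reads mapped anywhere it held 1.43% ± 0.0372. Reads mapped to several places are not in the gene counts, so the rank holds for gene counts alone. In bulk tissue a high level in few cells and a low level in many cells cannot be told apart, and the cells that gave these reads were not measured.

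Mir29a led its family, with 226 CPM in replicate 1 (977 counts, interval 212 to 240) and 281 CPM in replicate 2 (1080 counts, interval 265 to 299). Its mean was 254 ± 39.2 CPM (SD, n = 2), at rank 130 in replicate 1 and 124 in replicate 2. Mir29c, from the other locus, had 85.0 CPM in replicate 1 (368 counts, interval 76.6 to 94.2) and 115 CPM in replicate 2 (441 counts, interval 104 to 126), a mean of 99.9 ± 21.1 CPM. Both libraries put Mir29a above Mir29c, and the ranges of these 2 genes over the libraries did not overlap.

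The miR-29b genes were at the edge of detection. Mir29b-1 had 9 counts in replicate 1 and 5 in replicate 2, or 2.08 CPM (interval 0.951 to 3.95) and 1.30 CPM (interval 0.423 to 3.04). Mir29b-2 had 4 counts in each library, or 0.924 CPM (interval 0.252 to 2.37) in replicate 1 and 1.04 CPM (interval 0.284 to 2.67) in replicate 2. The intervals of the 2 miR-29b genes overlapped in both libraries, so an order between Mir29b-1 and Mir29b-2 was not detectable at this depth. Because the main arm of these genes is the same at 2 loci, its reads map to several places and can be among those left out of the gene counts. The low counts are thus no measure of how much miR-29b-3p the heart held, and the share of the left-out reads that it made up was not tested. Gene counts also do not tell 5p from 3p reads.

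**Figure D2:**
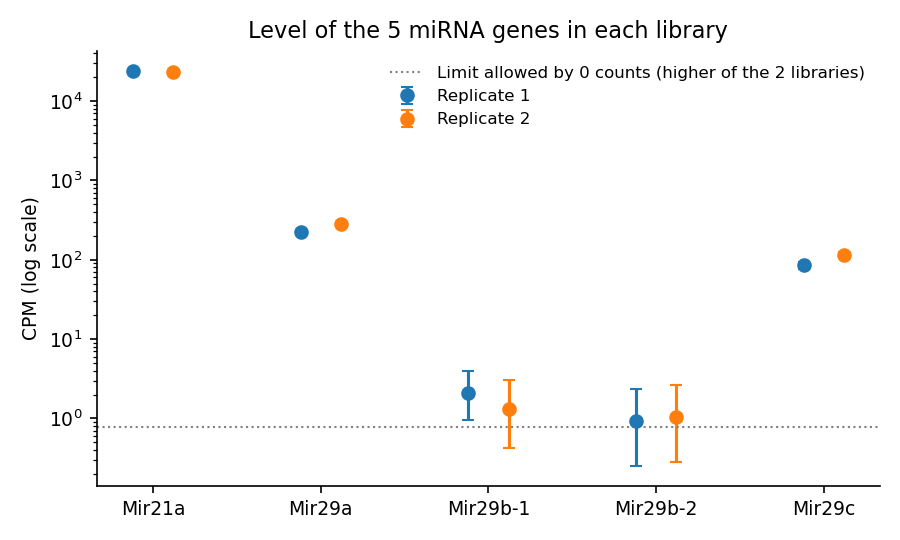
CPM of each gene on a log axis in replicate 1 (blue) and replicate 2 (orange), with exact 95% Poisson intervals, which are smaller than the points for Mir21a, Mir29a and Mir29c. The dotted line is the 0.781 CPM that a count of 0 allows in replicate 2; Mir29b-1 and Mir29b-2 lie close to it, at 4 to 9 counts.

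With a minimum of 10 counts in each library, 3 of the 5 genes were detected, Mir21a, Mir29a and Mir29c, against 17.1% of all 1973 genes (337). The miRNAs were picked as known and studied ones, so the difference from that background is not a result about fibrosis miRNAs. Mir21a lay in the uppermost part of the abundance curve. Among the 337 detected genes, whose median was 104 CPM, Mir29c lay near the middle and Mir29a above it. The miR-29b genes were below the minimum.

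**Figure D3:**
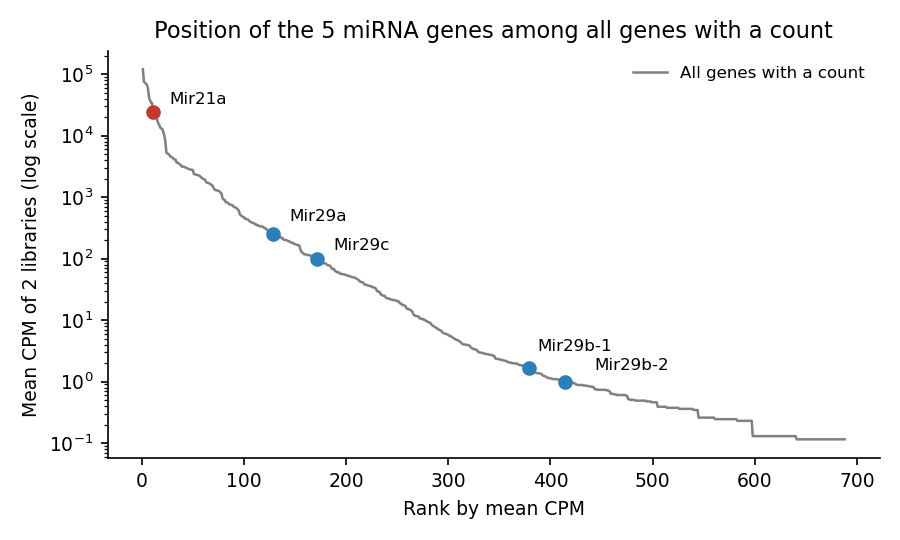
Mean CPM of 2 libraries (log axis) against rank for every gene with at least 1 count, as a grey line. Mir21a (red) stands at rank 11, Mir29a at 128 and Mir29c at 171, while Mir29b-1 at 379 and Mir29b-2 at 414 lie where the mean is under 2 CPM.

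Set against the whole miR-29 family, Mir21a was higher by well over an order of magnitude in both libraries. The 4 miR-29 genes gave 314 CPM together in replicate 1 (1358 counts) and 398 CPM together in replicate 2 (1530 counts), a mean of 356 ± 59.8 CPM. The ratio of Mir21a to this sum was 77.1 in replicate 1 (interval 73.1 to 81.4) and 58.5 in replicate 2 (interval 55.6 to 61.6), a mean of 67.8 ± 13.1 (SD, n = 2). The intervals of the 2 libraries did not overlap, so the ratio varied between them by more than the counting error of reads. That error does not cover copies made by PCR. The size of the ratio was still far above the variation between the libraries. Divided by the lengths of the mature arms, which run from 22 to 25 bases in these genes, the ratio of levels was 67.8 ± 13.1. This could hardly change it, since both arms of Mir21a, Mir29a and Mir29c have 22 bases and Mir29a and Mir29c held nearly all miR-29 counts. Mir21a exceeded Mir29a by 107-fold in replicate 1 and 82.9-fold in replicate 2. It exceeded Mir29c by 284-fold in replicate 1 and 203-fold in replicate 2. No test was made, since the series holds 1 group of 2 libraries. Reads of miR-29b-3p that the gene counts leave out would lower the ratio of Mir21a to the family. All reads mapped to several places, of whatever RNA, were 1839 times the miR-29 counts in replicate 1 and 1431 times in replicate 2. The data thus set no useful limit on how far the ratio would fall.

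Within the family, Mir29a and Mir29c made up nearly all counts, in like proportions in both libraries. Mir29a held 71.9% of the miR-29 counts in replicate 1 and 70.6% in replicate 2, a mean of 71.3% ± 0.959. Mir29c held 28.0% ± 1.22, Mir29b-1 0.495% ± 0.238 and Mir29b-2 0.278% ± 0.0234. The ratio of Mir29a to Mir29c was 2.65 in replicate 1 and 2.45 in replicate 2, a mean of 2.55 ± 0.146, and the intervals of the libraries overlapped. Summed by locus, the gene counts of the chromosome 6 pair exceeded those of the chromosome 1 pair by 2.65-fold in replicate 1 and 2.44-fold in replicate 2. Within the chromosome 6 pair, Mir29a exceeded Mir29b-1 by 109-fold in replicate 1 (interval 56.9 to 238) and 216-fold in replicate 2 (interval 92.3 to 667). Within the chromosome 1 pair, Mir29c exceeded Mir29b-2 by 92.0-fold in replicate 1 (interval 35.6 to 339) and 110.25-fold in replicate 2 (interval 42.8 to 406). At both loci the miR-29b gene had the lower count of its pair, with 9 counts at most. Reads of the shared miR-29b-3p arm can be missing at both loci, so the miR-29b shares, locus sums and pair ratios describe gene counts alone.

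Mir21a was slightly higher in replicate 1 than in replicate 2, and Mir29a and Mir29c were lower in replicate 1. The ratio of replicate 1 to replicate 2 was 1.04 for Mir21a (interval 1.03 to 1.05), 0.803 for Mir29a (interval 0.735 to 0.876) and 0.740 for Mir29c (interval 0.643 to 0.852). These intervals excluded 1 in 3 of 3 detected members, as they did in 52.2% of the 337 detected genes, so such a difference was common in the table. On the log2 scale the ratios were 0.05 for Mir21a, -0.32 for Mir29a and -0.43 for Mir29c, beside a median of -0.08 over the detected genes and a median absolute value of 0.23. Of the 337 genes, 299 (88.7%) had a larger absolute log2 ratio than Mir21a, 114 (33.8%) than Mir29a and 79 (23.4%) than Mir29c. Scaling by median-of-ratios size factors (DESeq2) shifted every log2 ratio by 0.11, which gave 0.17 for Mir21a, -0.20 for Mir29a and -0.32 for Mir29c, with the same signs. The ratio of Mir29b-1 was 1.60 (interval 0.481 to 6.07) and that of Mir29b-2 was 0.887 (interval 0.165 to 4.76), so no difference was detectable for either.

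Several marker lists of other cell types and tissues also differed between the libraries. The smooth muscle pair Mir143 and Mir145a was lower in replicate 1, as Mir29a and Mir29c were, with 64494 CPM in replicate 1 against 87098 CPM in replicate 2. The log2 ratio was -0.44 for Mir143 and -0.25 for Mir145a, beside -0.43 for Mir29c and -0.32 for Mir29a. Of the heart muscle miRNAs, Mir208a had -0.52, Mir208b -0.01 and Mir499 -0.12. The ratio was -0.10 for Mir126a of endothelium and -0.22 for Mir122 of liver. All 7 listed epithelial miRNAs were detected, with Mir429, Mir203 and Mir200b the highest. Together the 7 gave 667 CPM in replicate 1 against 1142 CPM in replicate 2. The nervous tissue miRNA Mir137 had 13.2 CPM in replicate 1 against 85.7 CPM in replicate 2. The other 5 nervous tissue markers in the tables, copies of miR-124 and miR-9, were at 0 in both, but they too are genes with near-identical copies. The red blood cell pair Mir451a and Mir144 gave 1184 CPM in replicate 1 against 489 CPM in replicate 2. The white blood cell miRNAs Mir223 and Mir155 gave 479 CPM in replicate 1 against 389 CPM in replicate 2. Mir142 of the white blood cell list and Mir9-1 of the nervous tissue list were not found by symbol. The part of these cell types and tissues in the replicate differences of Mir29a and Mir29c was not tested.

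**Figure D4:**
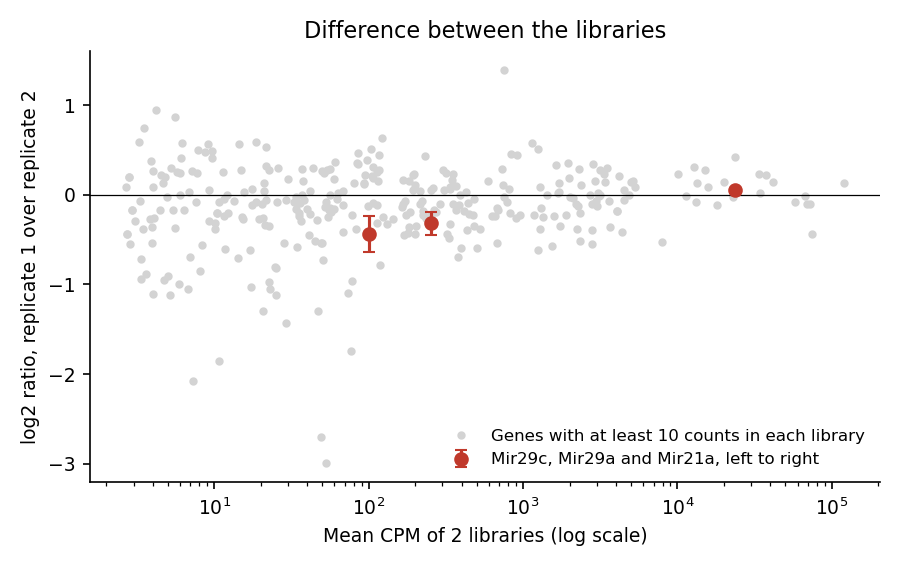
The log2 ratio of replicate 1 to replicate 2 against mean CPM (log axis) for the 337 genes with at least 10 counts in each library (grey). Mir29c at -0.43, Mir29a at -0.32 and Mir21a at 0.05 are in red with exact 95% intervals, and lie among the grey points of like level.

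With 1 group, the only pattern available for likeness is the level over the 2 libraries. Nearest to Mir21a was Mir351 (27184 and 20309 CPM in replicates 1 and 2), whose log2 mean differed from it by 0.00014, though Mir351 varied more between the libraries. Mir23a, next below, averaged 22764 ± 282 CPM, and Mir30e and Mir26b, next above, averaged 33910 ± 3920 and 33998 ± 382 CPM. The means of Mir21a and Mir351 did not differ beyond their spread. Mir29a stood between Mir362 (254 ± 6.62 CPM) and Mir540 (252 ± 27.4 CPM), with Mir34a (260 ± 10.1 CPM) and Mir203 (243 ± 28.6 CPM) next. None of these 4 differed from it in mean beyond the spread of the libraries. Mir203 was below Mir29a in both libraries, and the others were above it in replicate 1 and below it in replicate 2. By mean and spread, Mir29c likewise could not be told from Mir505 (103 ± 25.6 CPM), Mirlet7c-1 (104 ± 10.6 CPM), Mir450-1 (98.4 ± 5.88 CPM) or Mir196b (97.4 ± 18.8 CPM). Within the libraries all of these were above Mir29c in replicate 1 and below it in replicate 2. For Mir505 the levels were 121 and 84.9 CPM, against 85.0 and 115 CPM for Mir29c. The rows next to the miR-29b genes held 2 to 11 counts per library. They were Mir6963, Mir8103, Mir1933 and Mir5622 for Mir29b-1, and Mir7062, Mir5619, Mir295 and Mir3100 for Mir29b-2.

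Other miRNAs described in the literature on injured hearts gave the level of Mir21a and the miR-29 genes a setting. Of 9 miRNAs linked to more fibrosis, 9 were detected, beside 17.1% of all genes, with a median of 2975 CPM against 0 CPM over all genes. Like the 5 members, the miRNAs of both lists were picked as studied ones, so these counts show nothing particular to them. Mir21a was the highest of them. Mir22, a miRNA abundant in heart muscle, came second at 13095 ± 511 CPM, and Mir208a, which lies in the myosin gene Myh6 of heart muscle cells, came next at 7962 ± 2009 CPM. The ranges of these 3 over the libraries did not overlap. The rest of this list ran from Mir214 at 3621 ± 118 CPM to Mir155, a miRNA of white blood cells, at 116 ± 25.0 CPM.

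Of 17 genes linked to less fibrosis, 16 were found by symbol and 12 were detected, again beside 17.1% of all genes. Their median was 50.0 CPM against 0 CPM over all genes. The highest was Mir30a at 14990 ± 2038 CPM, of a family reported to repress the connective tissue growth factor gene. Mir101b followed at 1281 ± 239 CPM and Mir24-2 at 272 ± 25.0 CPM. Mir29a was the fourth of these 16, Mir29c the seventh, and Mir29b-1 and Mir29b-2 were in places 14 and 15. The means of Mir24-2 and Mir29a did not differ beyond the spread of the libraries. Mir24-2 was the higher in both, at 254 against 226 CPM in replicate 1 and 290 against 281 CPM in replicate 2. The 4 genes of this list that were not detected were Mir19b-2, Mir29b-1, Mir29b-2 and Mir133a-2, each a copy among genes with a shared mature sequence. Other copies of this kind in the list were detected, from Mir24-2 at 272 ± 25.0 CPM to Mir133a-1 at 2.95 ± 0.249 CPM. The part of shared sequences in detection was not tested. The lists differ in how many such copies they hold, so the levels of their members, 52714 ± 2020 CPM in all for the first list and 17282 ± 1696 CPM for the second, do not compare the amounts of the mature miRNAs.

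**Figure D5:**
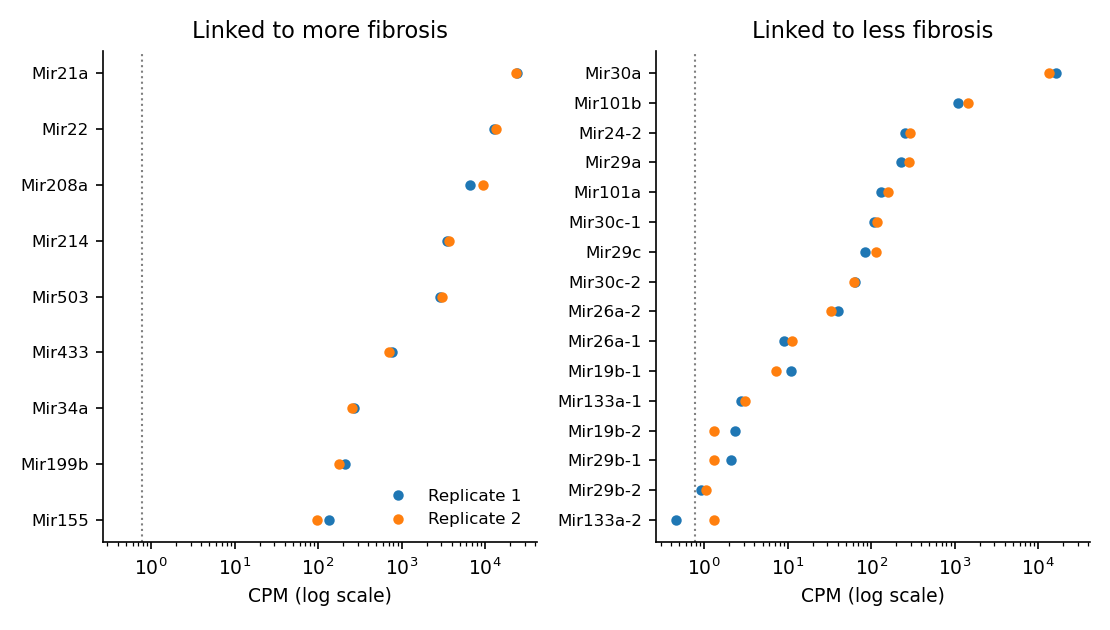
CPM on a log axis for the miRNAs linked to more fibrosis (left) and to less fibrosis (right) in injured hearts, in replicate 1 (blue) and replicate 2 (orange). Mir21a tops the left list at 23749 CPM on average, Mir29a and Mir29c are mid-list on the right at 254 and 99.9 CPM, and the dotted line is the 0.781 CPM that a count of 0 allows.

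Beside the other markers of fibroblasts and mesenchyme, Mir21a gave most of the listed total of 27612 ± 518 CPM in gene counts. Mir214 gave 3621 ± 118 CPM, Mir199b 193 ± 21.6, Mir199a-2 46.5 ± 6.35 and Mir199a-1 2.85 ± 0.760, and 5 of 5 were detected. The miR-199 genes are copies of a family, and reads that map to several places are not in the gene counts. These levels thus do not compare the amounts of the mature miRNAs. Mir21a is made in many cell types besides fibroblasts, and its level was not tied to any cell of the heart by these data.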

How the data were processed

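The deposited tables hold whole-number read counts per gene in 1 table per library, with no pooling, on mm10 with the GENCODE M4 annotation, per the descriptions deposited with the files. No aligner or counting program is named in the sources used here. The 3 count columns ignore strand, or take 1 strand or the other, and 4 summary lines hold the remaining reads. The strand column that held 95.4% ± 0.103 (SD, n = 2) of gene reads was used. Library totals exclude the summary lines. Those lines held 30.4% ± 0.359 of reads as mapping to several places, 11.9% ± 0.330 as unmapped and 4.73% ± 0.220 as outside genes.

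Symbols and positions came from GENCODE M21, by gene ID, for 1894 of 1973 rows. Genes named were the members, rows sharing a seed, the 2 rows above and 2 below each member in mean CPM, and the 3 highest of each list. Further members of these lists that are named were chosen after their values were seen. The members and lists were chosen with earlier results of these data known. The Clopper-Pearson interval of replicate ratios was run on simulated Poisson counts. That is the model the interval assumes, so its cover of the spread between real libraries was not tested. Alternatives were the unstranded column, TMM (edgeR 4.0.16), size factors (DESeq2 1.42.0), all reads as the total, per-base counts, a pseudocount of 1 CPM, the summed Mir21a, Mir21b and Mir21c rows, count minimums of 1 and 100, each replicate left out and, added after the data were seen, Mir29a and Mir29c alone. R 4.3.3, Python 3.11.15, numpy 2.4.6, pandas 2.3.3, scipy 1.17.1 and matplotlib 3.10.9 were used.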

Additional observations from a re-analysis of the deposited data

How the results depend on the processing

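Of 36 values recomputed under another setting, 29 stayed within the spread of the libraries or the counting interval. Part of this tally was fixed in advance. With 2 libraries, the value of either always lies within 1 SD of their mean. The 5 genes had 0 opposite-strand reads, so the unstranded column could not change ratios between them, shares or the number detected. Mir21b and Mir21c added 0 counts. With the unstranded column, whose total is larger, Mir21a averaged 22645 CPM. With all reads of a library as the total, Mir21a averaged 12578 CPM and the miR-29 sum 189 CPM on that scale. The replicate ratio of Mir21a was 1.09 with TMM and 1.12 with size factors, and that of the miR-29 sum 0.852 with size factors. With a minimum of 1 count, 5 of 5 genes were detected. The ratio of Mir21a to the miR-29 sum ran from 58.5 to 77.1 with a replicate left out, and from 67.6 to 68.3 under the other settings. No paired analysis was possible because the series has 1 group. Reads that mapped to several places limit every miR-29b value.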

Other observations

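Genes with an arm identical at another locus varied widely in their counts. Of 87 genes whose RefSeq arms include such an arm, 40 (46.0%) were detected, against 268 of 829 (32.3%) of the other genes with a RefSeq mature sequence, with no test made. The median level was 1.11 CPM in the 87 genes and 0.376 CPM in the 829. The part of shared arms in the low counts of Mir29b-1 and Mir29b-2 was not tested. Mir29b-1 lay above 44 of the 87 in mean CPM and Mir29b-2 above 41, and 32 of the 87 had 0 counts.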
